A study of Mus musculus with 2 samples.

Results

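The Egr and Nr4a immediate early genes were examined in hematopoietic stem cells (HSCs) of young and aged mice. The 6 members were the zinc finger genes Egr1, Egr2 and Egr3 and the nuclear receptor genes Nr4a1, Nr4a2 and Nr4a3, chosen by name out of 21826 protein-coding genes. The study profiled open chromatin by single-cell ATAC-seq, in which a transposase cuts accessible DNA, in HSCs sorted from bone marrow of female C57BL/6 mice. There was 1 library from mice 10 weeks old (young HSCs) and 1 from mice 20 months old (aged HSCs). Both were sorted as lineage-negative, Sca-1-positive and c-kit-positive cells that were CD150-positive and lacked CD34, CD48, Flt3 and the IL-7 marker of the labels. The animals were untreated, and the sources used here do not say how many mice each of the 2 libraries pooled. With 1 library for each age no difference could be set against the spread between animals, and the intervals of levels, shares and ratios below cover counting error only.

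Immediate early genes are transcribed within minutes of a growth factor, cytokine or stress signal, without new protein synthesis, and encode factors that pass the signal on. Their promoters lie open before the signal arrives and are read by serum response factor with its Elk partners at CArG boxes and by CREB at cyclic AMP response elements. Egr proteins bind GC-rich sites through 3 zinc fingers, and Nr4a proteins are orphan receptors that bind as monomers to an extended single site, the NBRE. In HSCs, Egr1 and Nr4a1 are known as genes that help hold the cells in quiescence within the marrow.

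Of the 6 members, 4 have a RefSeq promoter entry that is shown here. These sequences let the response elements be seen beside the values. Capitals mark the 5-base core of the cyclic AMP response element (CRE core), TGACG on either strand, the CArG box and the EGR motif GCGNGGGCG on either strand. Bases are from GRCm38.p6 (mm10), 5′ to 3′ along the gene, and end just before the transcription start site (TSS) used for counting.
Egr2 promoter, chr10:67537619-67537868, plus strand: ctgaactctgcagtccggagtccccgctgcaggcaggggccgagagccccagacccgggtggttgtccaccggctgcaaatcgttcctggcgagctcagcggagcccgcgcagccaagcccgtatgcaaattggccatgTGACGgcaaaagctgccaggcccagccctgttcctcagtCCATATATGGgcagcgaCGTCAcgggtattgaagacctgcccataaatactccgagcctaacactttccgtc
Nr4a1 promoter, chr15:101266596-101266845, plus strand: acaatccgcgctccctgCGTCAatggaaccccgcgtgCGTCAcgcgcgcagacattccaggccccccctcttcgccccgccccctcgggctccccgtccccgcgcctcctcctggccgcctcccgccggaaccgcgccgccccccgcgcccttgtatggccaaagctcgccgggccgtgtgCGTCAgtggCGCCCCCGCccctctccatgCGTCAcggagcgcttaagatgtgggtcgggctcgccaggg
Nr4a2 promoter, chr2:57124004-57124253, minus strand: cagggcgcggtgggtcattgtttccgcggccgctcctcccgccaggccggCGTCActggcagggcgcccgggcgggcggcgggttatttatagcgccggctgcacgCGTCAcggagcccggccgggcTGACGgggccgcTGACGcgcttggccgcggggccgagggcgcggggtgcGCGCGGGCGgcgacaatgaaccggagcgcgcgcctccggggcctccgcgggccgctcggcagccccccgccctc
Nr4a3 promoter, chr4:48045055-48045152, plus strand: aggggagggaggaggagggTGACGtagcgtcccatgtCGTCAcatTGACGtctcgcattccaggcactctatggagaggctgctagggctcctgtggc
The Nr4a3 entry of RefSeq starts 152 bp downstream of the TSS used for counting, so only its first 98 bases are shown, while its sites were counted over all 250 bases. Within 250 bases, Nr4a1, Nr4a2 and Nr4a3 each held 4 CRE cores and Egr2 held 2. At least 3 CRE cores were found in 0.688% of 32851 promoter entries, and at least 1 in 17.8%. The whole palindrome TGACGTCA, which contains the CRE core, was in none of the 4 windows and in 1.55% of all entries. Egr2 alone among the 4 held a CArG box, which 1.47% of entries held, and Nr4a1 and Nr4a2 each held 1 EGR motif, which 4.70% of entries held. None of the 4 held the NBRE letters AAAGGTCA (1.34% of entries) or the AP-1 letters TGANTCA (6.75%). These matches describe the letters of the windows and not bound factors.

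After filtering, 4887 young and 3405 aged cells were kept, with 34621562 and 26135394 fragments in peaks, and 26 barcodes were shared between the libraries. The median cell had 9890 fragments in young and 11020 in aged HSCs. All 10 HSC marker promoters carried at least 100 fragments, with summed levels of 254 and 256 fragments per 1000000 in-peak fragments (FPM). Of these Slamf1 (log2 ratio of aged over young 0.43, 0.18 to 0.69) and Hoxb5 (0.29, 0.14 to 0.44) were more than 1.2-fold higher in aged HSCs. The summed levels of 5 marker promoters of each other type were 44.7 in young and 45.3 in aged HSCs for B cells, 49.2 and 40.3 for T cells, 10.8 and 8.23 for myeloid cells, and 53.3 and 53.4 for erythroid cells. They were 139 and 127 for megakaryocytes and 63.8 and 66.5 for stroma and endothelium, and no marker promoter was at 0. A few open promoters carried much of these sums, such as Pax5 (26.4 FPM in each library) and Cd3d (41.4 and 34.3 FPM), while Ms4a1, Cd8a and Ly6g had 6 to 21 fragments. Of the 5 myeloid markers Mpo (-0.85) and Csf1r (-0.81) had lower and Elane (0.77) higher log2 ratios of aged over young. Among markers of the other types with at least 100 fragments, Itga2b (-0.36) and Cd3d (-0.27) were lower and Cxcl12 (0.28) and Cdh5 (0.28) higher by more than 1.2-fold. The part of other cell types in the results below was not tested.

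All 6 members had open promoters in both libraries, and their levels hardly moved with age except at Nr4a1. Levels are fragments in the window from 1 kb before to 1 kb after the TSS, expressed as FPM, and ratios are log2 of aged over young FPM with a pseudocount of 1 fragment. The order of levels in young HSCs was Egr1, Nr4a1, Nr4a3, Egr2, Nr4a2 and Egr3, in which Nr4a3 and Egr2 were neighbours with overlapping intervals. In aged HSCs Egr1 and Egr3 kept the ends of the order, while the intervals of Nr4a1, Egr2 and Nr4a3 overlapped one another. All windows have the same length, so these levels can be set side by side.

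Egr1 (ENSMUSG00000038418, chr18:34859823-34864984, plus strand) had the highest level, at 2951 young and 2119 aged fragments. This was 85.2 FPM (82.2 to 88.4) and 81.1 FPM (77.7 to 84.6), a log2 ratio of -0.07 (95% interval -0.15 to 0.01). This placed it at percentile 98.4 of all promoter levels in young and 98.6 in aged HSCs. Egr2 (ENSMUSG00000037868, chr10:67535475-67542188, plus strand), which is best known for Schwann cell myelination and T cell tolerance, had 1808 and 1404 fragments. Its levels were 52.2 and 53.7 FPM and its log2 ratio was 0.04 (-0.06 to 0.14). Egr3 (ENSMUSG00000033730, chr14:70077203-70082614, plus strand), a paralog induced with Egr2 in activated lymphocytes, was the least open member. It had 834 and 644 fragments, or 24.1 and 24.6 FPM, with a log2 ratio of 0.03 (-0.12 to 0.18). The 3 Egr promoters together gave -0.02 (-0.08 to 0.04).

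Nr4a1 (Nur77, ENSMUSG00000023034, chr15:101254269-101274795, plus strand) was the member with the lowest ratio. Its promoter held 2217 young and 1447 aged fragments, 64.04 FPM (61.4 to 66.8) and 55.4 FPM (52.5 to 58.3). The log2 ratio was -0.21 (-0.31 to -0.11), which lay at percentile 7.49 of 15544 promoters with at least 100 fragments. Nr4a2 (Nurr1, ENSMUSG00000026826, chr2:57106830-57124003, minus strand), known for dopaminergic neurons, had 1607 and 1154 fragments. Its levels of 46.4 and 44.2 FPM gave a log2 ratio of -0.07 (-0.18 to 0.04). Nr4a3 (Nor1, ENSMUSG00000028341, chr4:48045153-48086447, plus strand), which acts redundantly with Nr4a1 as a brake on myeloid leukemia, had 1905 and 1362 fragments. Its levels were 55.0 and 52.1 FPM and its log2 ratio was -0.08 (-0.18 to 0.02).

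**Figure D1:**
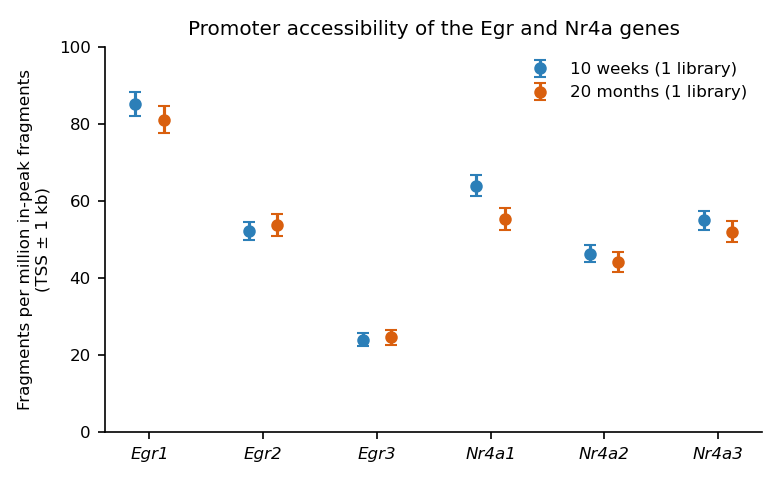
Promoter level of each member in the 10-week and the 20-month library, in fragments per 1000000 in-peak fragments within 1 kb of the TSS. Points are 1 library each and bars are exact Poisson 95% intervals. The bars of the libraries overlap for every member but Nr4a1, whose level was 64.04 at 10 weeks and 55.4 at 20 months.

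No member promoter passed a 1.2-fold difference in either direction, although Nr4a1 did so in cells thinned to 3000 in-peak fragments each (log2 ratio -0.27). Among all 15544 promoters 9.93% were higher and 3.92% lower in aged HSCs by that limit, and the median log2 ratio was -0.05. The 6 promoters together had 327 and 311 FPM, a log2 ratio of -0.07 (-0.11 to -0.03), and without Nr4a1 the other 5 gave -0.04 (-0.09 to 0.01). Nr4a1 was singled out here because its ratio was the lowest, so its distance from the other members is a description. Its log2 ratio minus that of the other 5 together was -0.17 (exact conditional interval -0.28 to -0.06). Against Nr4a2 alone the difference was -0.14 (-0.28 to 0.01) and against Nr4a3 alone it was -0.13 (-0.27 to 0.01), and both of these intervals included 0. As a family the Nr4a promoters gave -0.13 (-0.18 to -0.07), which was -0.11 (-0.19 to -0.02) relative to the Egr promoters. Nr4a1 carried much of this, since Nr4a2 (-0.07) and Nr4a3 (-0.08) had ratios close to that of Egr1 (-0.07).

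The genes differ in their annotated start sites, and within a gene the sites did not always move together. Nr4a1 has an upstream start site 12577 bp before the main one, chr15:101254269. It had 1360 young and 793 aged fragments, 39.3 and 30.3 FPM, and its log2 ratio of -0.37 (-0.50 to -0.25) was the lowest of any start site of the members. This upstream site was lower than the main site of the gene by -0.16 on the log2 scale (-0.32 to -0.00217). In Nr4a2, too, the outer site had the lower ratio. Its outer start site is the main one given above, while the internal start site 8965 bp downstream had 40.3 FPM in young and 45.6 FPM in aged HSCs, a log2 ratio of 0.18 (0.07 to 0.29). The internal site exceeded the outer one by 0.25 (0.09 to 0.41). Egr2 had the same order, with -0.10 at its 5′ end and 0.04 at its main site. So had Nr4a3, with -0.08 at its main site and 0.10 at the site 3961 bp downstream. Egr3 had the reverse order, with 0.05 at its 5′ end and 0.03 at its main site. The intervals of these Egr2, Nr4a3 and Egr3 ratios included 0. Both start sites of Egr1 gave nearly the same ratio, -0.08 (-0.17 to 0.02) at the 5′ end of the gene and -0.07 at the site 1384 bp downstream used above, and their windows overlap.

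The tallest cut site bins lay at or next to the same place in both libraries. In bins of 50 bp the tallest bin was centred at -325 bp from the TSS of Egr1 and at -75 bp from those of Egr2 and Nr4a1 in young as in aged HSCs. For Egr3, Nr4a2 and Nr4a3 it differed by 1 bin. Over Nr4a1 the lower signal of aged HSCs spanned the core of the promoter, with 2842 young and 1794 aged cut sites in the 500 bp before the TSS (log2 ratio -0.24, -0.33 to -0.16). The 500 bp after the TSS gave -0.25 (-0.41 to -0.10). Further into Nr4a1, from 500 to 1000 bp, the counts of 404 and 353 cut sites gave 0.23 (0.02 to 0.44). Nr4a3 was also lower just before its TSS, with 2096 and 1366 cut sites (-0.20, -0.30 to -0.10), and higher from 500 to 1000 bp past it, with 323 and 319 (0.40, 0.18 to 0.63). The 1-kb window of Nr4a3 therefore averaged a lower core with a higher inner edge. Nr4a2 was lower in the 500 bp before its TSS too (-0.12, -0.22 to -0.02). From 500 to 1000 bp Egr1 (0.15), Egr2 (0.20) and Nr4a2 (0.11) were above 0 and Egr3 (-0.09) below, with intervals that included 0. No segment values over all promoters are given, so these shapes have no background. The share of fragments shorter than the DNA on a nucleosome was 59.8% in young and 55.0% in aged HSCs. Its part in the segment ratios was not tested. The highest segment ratio of any member was that of Egr3 in the 500 bp after its TSS, with 116 and 121 cut sites (0.48, 0.10 to 0.86), and Egr2 from -1000 to -500 bp had 710 and 603 (0.19, 0.03 to 0.34).

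**Figure D2:**
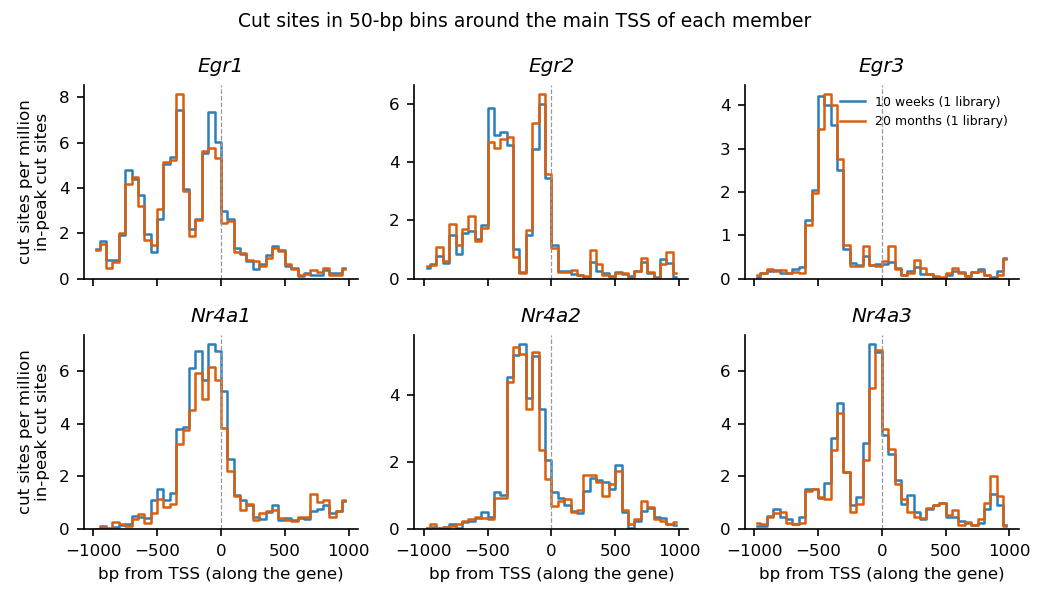
Cut sites per 1000000 in-peak cut sites in 50-bp bins from 1000 bp before to 1000 bp after the main TSS of each member, read along the gene. Lines are the 10-week and the 20-month library. The lines run close together over most of Egr1 and over the tallest part of Egr2. In the Egr1 bin centred at -75 bp they part, at 7.37 for 10 weeks and 5.76 for 20 months. The 20-month line runs lower over the core of Nr4a1, where the ratio was -0.24 in the 500 bp before the TSS.

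Over the gene bodies the log2 ratios of Egr1 and Egr3 had intervals above 0, and their differences from the promoters were not tested. Over the body of Egr1 there were 4418 young and 3589 aged fragments, 24.7 and 26.6 FPM per kb. The log2 ratio was 0.11 (0.04 to 0.17), at percentile 76.1 of gene bodies with at least 100 fragments. Leaving out the promoter window left 1696 and 1645 fragments, and the ratio rose to 0.36 (0.26 to 0.46). This remainder includes the first 2484 bp of the run of higher bins described below, so it is not a separate result. Egr3 had 586 and 524 fragments over its body, 3.13 and 3.70 FPM per kb. Its ratio of 0.24 (0.07 to 0.42) lay at percentile 88.3 of the same bodies.

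Nr4a1 was lower over its body as well, with 6610 and 4208 fragments, 9.30 and 7.84 FPM per kb and a log2 ratio of -0.25 (-0.30 to -0.19). This lay at percentile 5.27 of 17585 gene bodies with at least 100 fragments. The bodies of Egr2 (0.00457), Nr4a2 (0.05) and Nr4a3 (0.00899) had log2 ratios with intervals that included 0. None of the 6 bodies passed 1.2-fold, where 10.8% of all bodies were higher and 4.41% lower in aged HSCs.

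**Figure D3:**
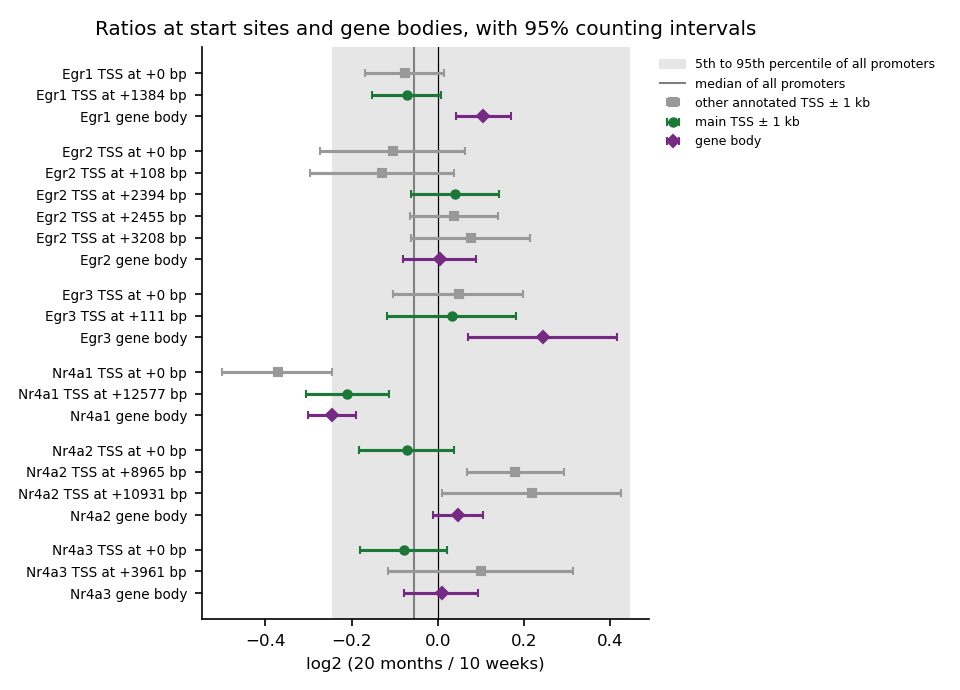
Log2 ratio of 20 months over 10 weeks for each annotated start site (window of 1 kb on either side, labelled by its distance from the 5′ end of the gene) and for the gene body of each member. Symbols are ratios of 1 library to 1 library, bars are exact binomial 95% intervals, and the grey band spans the 5th to 95th percentile of all promoters, from -0.24 to 0.44. The upstream start site of Nr4a1 at -0.37 is the only start site left of the band.

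The strongest difference at any member lay in and past the 3′ part of Egr1. Within 100 kb of the 6 genes 270 bins of 500 bp held at least 100 fragments, of which 12 were higher and 13 lower in aged HSCs by more than 1.5-fold. Of 182098 such bins in the genome 9.01% were higher and 2.90% lower. The 5 highest bins of all members were consecutive or close neighbours 4044 to 7044 bp past the Egr1 TSS. The bin at chr18:34865001-34865500 had 241 young and 477 aged fragments, or 6.96 and 18.3 FPM. Its log2 ratio was 1.39 (1.16 to 1.62), and the bin 1 kb further, chr18:34866001-34866500, had 77 and 182 fragments and a ratio of 1.64 (1.25 to 2.05). The 5 lowest bins were scattered, at -71595 bp (-0.96) and 8905 bp (-0.80) from the Nr4a1 TSS, at 52437 bp (-0.88) and -83563 bp (-0.82) from the Egr3 TSS and at 17544 bp (-0.79) from the Egr1 TSS.

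These bins belong to an unbroken run. From chr18:34862501 to 34873000 all 21 consecutive bins were more than 1.5-fold higher in aged HSCs, whatever their count, and each had an interval above 0. The run began 1294 bp past the TSS, inside the gene, and ended 8.02 kb past the gene end. The bin just before it had a log2 ratio of 0.11 (-0.28 to 0.48), and the bins of the run ranged from 0.75 to 2.73 with a median of 1.41. Of the 21 bins 10 held at least 100 fragments, and the highest ratio came from 1 young and 9 aged fragments. The bin just past the run held 19 fragments in all and gave -0.29 (-1.96 to 1.09). Farther on, 4 consecutive bins from chr18:34874001 were again past 1.5-fold, with few fragments and intervals that included 0. The end of the run thus rests on few fragments. Over the whole 10.5 kb there were 1093 young and 2059 aged fragments, 31.6 FPM (29.7 to 33.5) and 78.8 FPM (75.4 to 82.3). That is 2.50-fold, a log2 ratio of 1.32 (1.21 to 1.43). The run was outlined from these same values, so its ratio is a description and carries no test. The fragments came from many cells. After each cell was thinned to 3000 in-peak fragments, 431 of 4787 young cells (9.004%, exact binomial interval 8.21 to 9.85) and 620 of 3271 aged cells (19.0%, 17.6 to 20.3) had at least 1. Without thinning the shares were 17.0% and 35.9%, and no cell held more than 7.

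**Figure D4:**
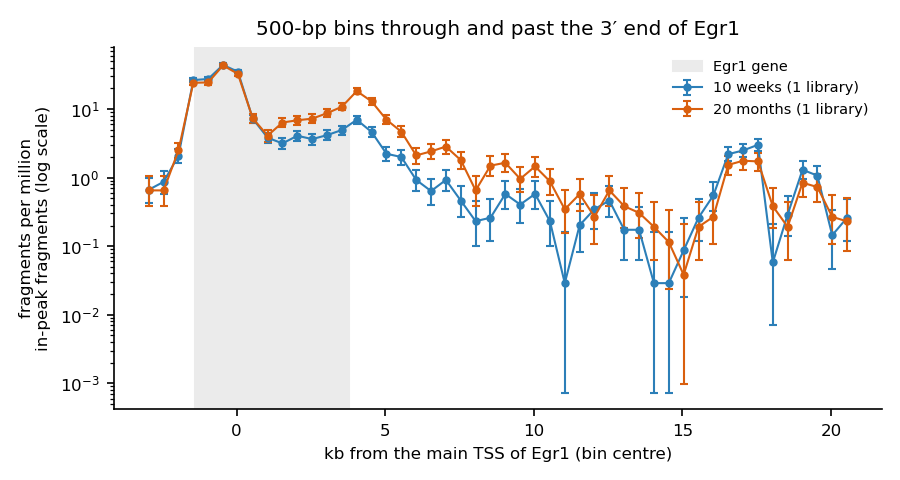
Fragments per 1000000 in-peak fragments (log axis) in 500-bp bins from 3 kb before the main TSS of Egr1 to 20 kb past it, for the 10-week and the 20-month library, with exact Poisson 95% intervals. The grey block is the Egr1 gene. The lines run together over the promoter and part 1294 bp past the TSS, after which the 20-month line stays above for 21 bins.

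Within the run 2 peaks were called, both centred just past the gene end in intergenic sequence. The peak at chr18:34864953-34865710, centred 4125 bp past the TSS, had 306 young and 613 aged fragments and a log2 ratio of 1.41 (1.21 to 1.61), at percentile 98.5 of 97303 peaks with at least 100 fragments. It was touched in 2.82% of thinned young cells and 6.66% of thinned aged cells. Its neighbour at chr18:34865783-34865930 had 59 and 115 fragments and a ratio of 1.36 (0.90 to 1.85). Farther downstream the directions were mixed. Of the 15 peaks past the gene, which include the 2 of the run, 8 were below 0, all of them beyond the run. The lowest, 17335 bp and 23877 bp past the TSS, had ratios of -0.76 (-1.25 to -0.31) and -0.89 (-1.37 to -0.46). They held 129 and 57 fragments, and 144 and 58, while the larger peak 26563 bp past the TSS held 1774 and 1470 (0.13, 0.03 to 0.24). Summed over the 100 kb downstream of Egr1 the ratio was 0.12 (0.08 to 0.16), and over the 100 kb upstream it was -0.01 (-0.06 to 0.04). The downstream sum of 11649 and 9539 fragments includes those of the run past the gene end.

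The same stretch was then read past every gene, a comparison added after the Egr1 bins had been seen. In the 5 kb past the gene end Egr1 had 542 young and 1174 aged fragments, 15.7 and 44.9 FPM, and a log2 ratio of 1.52 (1.37 to 1.67). Of 7207 genes with at least 100 fragments there and no coding TSS within 1 kb, 5.19% were more than 1.5-fold higher and 2.84% lower, and Egr1 lay at percentile 99.7. Nr4a1 lay at the other end with 568 and 279 fragments, 16.4 and 10.7 FPM, a ratio of -0.62 (-0.83 to -0.41) and percentile 2.29. Nr4a2 had 647 and 558 fragments (0.19, 0.03 to 0.36) and Egr3 had 109 and 95 (0.21, -0.21 to 0.62). Egr2 and Nr4a3 had 76 and 60 fragments in all and were not called. Of 28 other immediate early genes measured the same way 2 were higher, Trib1 (0.69) and Rhob (0.65), 1 was lower, Dusp5 (-0.68), and the median was 0.11. Of 12 relatives and regulators of the members 1 was higher, Elk4 (0.73), and none lower.

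Nr4a1 had the most crowded surroundings of the 6, and the peaks there leaned to lower accessibility, as did those of some other members. Of 52 peaks with at least 100 fragments in the gene and its flanks 35 had a ratio below 0 (67.3%), none was more than 1.5-fold higher and 4 were lower. The background was 9.60% higher and 4.01% lower among all peaks, 50.3% of all peaks had a ratio above 0, and their median log2 ratio was 0.00240 against -0.15 around Nr4a1. Egr2 (64.3%) and Nr4a3 (63.6%) had shares below 0 near that of Nr4a1. Those of Egr1 (55.2%) and Egr3 (51.5%) were nearer the background, and that of Nr4a2 was 38.5%. The 100 kb upstream of the gene gave 13120 and 8826 fragments and a ratio of -0.17 (-0.21 to -0.13), and the 100 kb downstream gave -0.05 (-0.09 to -0.01). Intervals below 0 were also found upstream of Egr2 (-0.12), Egr3 (-0.10), Nr4a2 (-0.09) and Nr4a3 (-0.09) and downstream of Egr2 (-0.13). No sums over the 100-kb flanks of all genes are given, so the flank sums of the members have no background. The flank downstream of Egr1 was higher (0.12), and the remaining flanks had intervals that included 0. Upstream of Nr4a1 lie Acvr1b and Grasp, so the flank is not that of Nr4a1 alone. The most accessible flanking peak, chr15:101246107-101246875, stands in intergenic sequence 20355 bp before the main TSS and 7778 bp before the upstream one. It had 2354 and 1517 fragments and a ratio of -0.23 (-0.32 to -0.13). The lowest peak, chr15:101195390-101195751, lies in an intron of Acvr1b 71275 bp before the main TSS, with 163 and 65 fragments and a ratio of -0.91 (-1.36 to -0.50). The others past the limit were in the same gene 78738 bp before the TSS (-0.68, -1.09 to -0.31), in a UTR at the 3′ end of Nr4a1 (-0.61, -1.10 to -0.15) and just past the gene end (-0.64, -0.91 to -0.39). The last of these, chr15:101275091-101276122, had 381 and 184 fragments. It holds the low bin at 8905 bp and lies in the 5 kb past the gene end read above, so these values are not separate results.

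**Figure D5:**
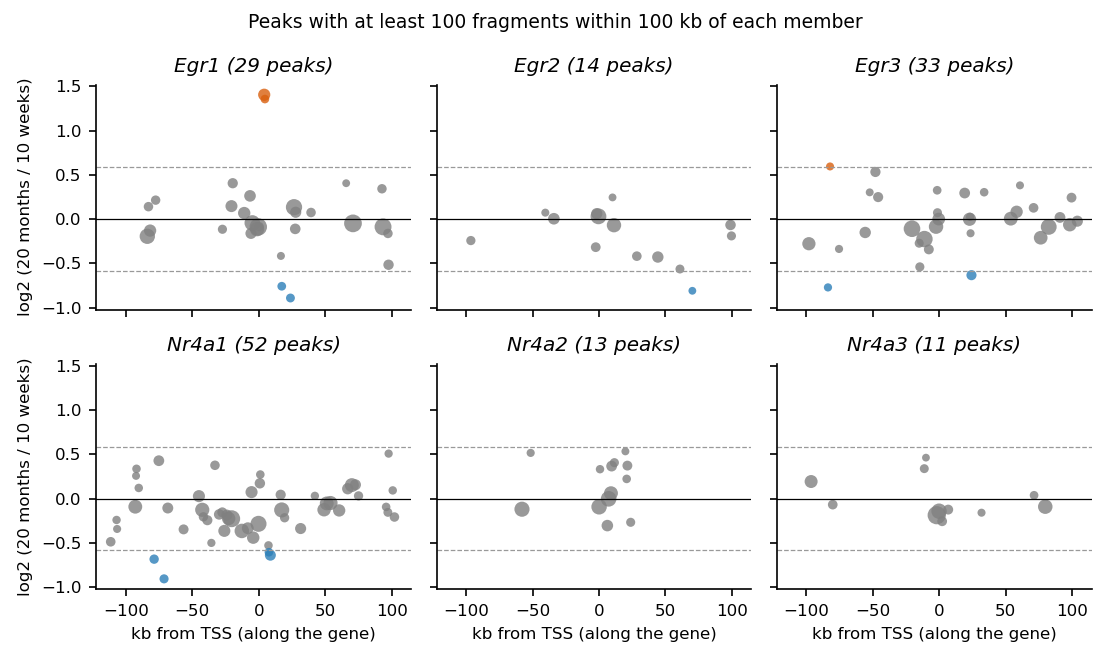
Log2 ratio of 20 months over 10 weeks against the distance from the main TSS in kb, read along the gene, for each peak with at least 100 fragments in a member or within 100 kb of it. Point area grows with the fragment count, dashed lines mark 1.5-fold, and coloured points lie past it. The 2 highest points, beside the Egr1 TSS, are at 1.41 and 1.36, and 35 of the 52 points around Nr4a1 lie below 0.

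The central 200 bases of the most accessible and of the lowest flanking peak of Nr4a1 are shown, with capitals on every motif found. The motifs searched were those above together with the letters AGATAA for GATA factors, TGTGGT for RUNX factors and GGAAGT for ETS factors, on both strands.
Nr4a1 peak at -20355 bp, chr15:101246391-101246590, plus strand: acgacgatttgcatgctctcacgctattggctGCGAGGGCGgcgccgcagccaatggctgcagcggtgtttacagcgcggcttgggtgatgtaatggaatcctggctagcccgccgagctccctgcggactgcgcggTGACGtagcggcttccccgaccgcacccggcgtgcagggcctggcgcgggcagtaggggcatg
Nr4a1 peak at -71275 bp, chr15:101195471-101195670, plus strand: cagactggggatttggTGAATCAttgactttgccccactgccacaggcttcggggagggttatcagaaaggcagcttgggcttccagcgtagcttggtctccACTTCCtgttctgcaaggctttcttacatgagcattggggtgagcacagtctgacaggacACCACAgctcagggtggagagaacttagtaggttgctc
The first held an EGR motif and a CRE core, found in the central 200 bases of 1.21% and 9.70% of all 164219 peaks. Among the 130162 peaks more than 1 kb from any TSS, as this one is, the shares were 0.309% and 8.23%. The second held 1 AP-1, 1 RUNX and 1 ETS motif, found in 9.36%, 21.7% and 27.3% of peaks.

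Around Egr3 the values were mixed, with 1 peak of 33 higher and 2 lower, beside 9.60% and 4.01% of all peaks. A pair of neighbouring peaks in an intron of Pebp4 lay on opposite sides. The peak 83818 bp before the TSS had 94 young and 41 aged fragments (-0.77, -1.36 to -0.25), while the one 82255 bp before it had 56 and 64 (0.60, 0.06 to 1.14). Their central 200 bases are shown because these neighbours differed in direction.
Egr3 peak at -83818 bp, chr14:69993396-69993595, plus strand: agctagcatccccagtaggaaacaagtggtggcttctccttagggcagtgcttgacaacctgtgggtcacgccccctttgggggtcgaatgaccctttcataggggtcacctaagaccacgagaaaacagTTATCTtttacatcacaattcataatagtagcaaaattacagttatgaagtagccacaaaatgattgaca
Egr3 peak at -82255 bp, chr14:69994959-69995158, plus strand: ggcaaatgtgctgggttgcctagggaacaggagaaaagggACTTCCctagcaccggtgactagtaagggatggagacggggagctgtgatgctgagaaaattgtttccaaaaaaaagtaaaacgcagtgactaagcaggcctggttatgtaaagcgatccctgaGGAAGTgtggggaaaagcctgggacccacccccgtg
The first held 1 GATA motif and the second 2 ETS motifs, and GATA letters were in 9.003% of all peaks. Another peak of the locus, 24208 bp past the TSS in an intron of Bin3, had 260 and 126 fragments and a ratio of -0.63 (-0.96 to -0.33). The most accessible one, 20566 bp before the TSS, had 2093 and 1465 fragments and a ratio of -0.11 (-0.21 to -0.01). The peak 48090 bp before the TSS had 194 and 212 fragments (0.53, 0.25 to 0.82).

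Egr2, Nr4a2 and Nr4a3 have sparser flanks, with 14, 13 and 11 peaks of at least 100 fragments. The single peak past the limit among them was 70262 bp downstream of Egr2, where 71 and 30 fragments gave -0.81 (-1.50 to -0.20). Of the 8 peaks downstream of Egr2, 7 had a ratio below 0, and the 100 kb there gave -0.13 (-0.20 to -0.05). Around Nr4a2 the median of 13 peaks was 0.22, and the highest, 19856 bp downstream of the TSS, had 53 and 58 fragments (0.53, -0.03 to 1.10). The most accessible flanking peak of Nr4a3, 1959 bp before its TSS, had 3155 and 2090 fragments, more than the promoter window itself, and a ratio of -0.19 (-0.27 to -0.11). The most accessible flanking peak of Egr1 belonged to the promoter of its neighbour Etf1 (-0.05), that of Egr2 was its own promoter (0.03), and that of Nr4a2 was an intronic peak (-0.00319). Over all 6 members 3 of 152 peaks were higher and 9 lower, beside 9.60% and 4.01% of all peaks.

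In single cells the promoters were read sparsely. At 3000 in-peak fragments a cell, 1080 of 4787 young cells (22.6%, 21.4 to 23.8) and 728 of 3271 aged cells (22.3%, 20.8 to 23.7) had a fragment at the Egr1 promoter. The share for Nr4a1 was 18.5% (17.4 to 19.7) in young and 15.2% (14.0 to 16.5) in aged cells. The other 4 promoters had shares of 7.29% to 15.0% in young and 7.18% to 15.1% in aged cells, with overlapping intervals for each gene. At the median of 1133 olfactory receptor promoters, which HSCs do not use, the shares were 0.0418% and 0.0611%. At least 1 of the 6 promoters was touched in 62.4% of young and 60.8% of aged cells, at least 1 without thinning in 86.9% and 85.2%. Exactly 1 was touched in 40.1% and 39.8% of thinned cells, and 5 were touched in 2 cells of each library.

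The regulators around the members and the other immediate early genes were read at their promoters in the same way. Of 24 relatives, corepressors and upstream factors, among them Egr4 and Wt1, the corepressors Nab1 and Nab2, the Nr4a partners Rxra and Rxrb, and Srf, Elk1 and Creb1, none passed 1.2-fold in either direction, beside 9.93% higher and 3.92% lower among all promoters. Their median log2 ratio was -0.08. The highest were Wt1 (0.22, 0.00431 to 0.42), Crtc3 (0.14) and Egr4 (0.11). The lowest were the CREB coactivators Crtc1 (-0.23, -0.37 to -0.10) and Crebbp (-0.22, -0.32 to -0.11) and the kinase gene Map2k2 (-0.18, -0.28 to -0.08). Of 37 other immediate early genes 1 was higher, Ccn1 (0.45, 0.27 to 0.62), which encodes a matrix protein, and none was lower, beside the same 9.93% and 3.92%. Ier3 (0.14) and Atf3 (0.13) followed, and the lowest were the phosphatase gene Dusp2 (-0.24, -0.33 to -0.15), Fosl2 (-0.21, -0.29 to -0.13) and Zfp36l2 (-0.14). The list median was -0.05, as over all promoters.

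The promoters closest to each member in level in both libraries were those of Mlf2 and Ogdh for Egr1, Oxr1 and Tmem176a for Egr2, and Gprin2 and Npl for Egr3. For Nr4a1 they were Slbp and Pan2, for Nr4a2 Tdg and Nudt9, and for Nr4a3 Cib1. The Euclidean distances ran from 0.000897 to 0.0159 on the log2 scale over 2 libraries.

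The sites that Egr and Nr4a proteins bind were examined in peaks more than 1 kb from any TSS. In 313 such peaks with the EGR motif the median log2 ratio was 0.05 (order-statistic interval 0.00164 to 0.08), beside 0.03 in all 69638 distal peaks, a difference of 0.03 (-0.02 to 0.06). Peaks with the motif were richer in GC, with a median of 63.5% against 49.0%, and in the 28 of them with middling GC the difference was -0.00584 (-0.06 to 0.11). Within 1 kb of a TSS the direction was the other one, and 1509 peaks with the EGR motif had a median of -0.07, a difference of -0.03 (-0.04 to -0.03) from all peaks there. These, too, were richer in GC, with a median of 73.0% against 60.0%, and held more fragments, with a median of 1286 against 647. No set of like GC was read there, so motif and GC content cannot be told apart. In 579 distal peaks with the NBRE the median was 0.10 (0.05 to 0.12), a difference of 0.07 (0.03 to 0.10), and 60.3% of them had a ratio above 0 against 53.0% of all. In the 213 with middling GC the difference was 0.07, with an interval of -0.01 to 0.17 that included 0. Beside these, 6882 distal peaks with the AP-1 letters had a median of 0.15 (0.14 to 0.17), and 230 with the palindrome TGACGTCA had 0.01, a difference of -0.02 (-0.07 to 0.04). The intervals are those of a median over peaks, not of the spread among peaks, and peaks are not replicates of a condition.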

How the data were processed

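Single-cell ATAC-seq of HSCs was analysed in 2 libraries, grouped from the labels. The processing notes of the authors name Cell Ranger ATAC, Signac and mm10. The deposited fragment lists hold unique fragments with counts of read pairs, and the deposited barcode tables hold counts per barcode and the cell calls. Barcodes called as cells with 3000 to 20000 in-peak fragments per the deposited tables were kept, and doublets were not called here. A fragment counted once in a region that held at least 1 of its ends. Genes and start sites were from GENCODE M21. Of the start sites of a gene the one with the most fragments over both libraries was used. Peaks were called on cut sites in windows of 151 bp against a 10000-bp local Poisson mean (q of 0.001) and merged into 164219. Bins, peaks, promoters and bodies were called at a minimum of 100 fragments over both libraries. Intervals of ratios were Clopper-Pearson, those of levels exact Poisson, at 95%. In each locus the peaks and bins named were the one with the most fragments and, over all members, the 5 highest and 5 lowest, with others past the limit named after their values were seen. For each gene list the 3 highest and 3 lowest genes were named, and for each member the nearest promoters in level. Members, gene lists and motifs were chosen with earlier results of these data known. The contrasts of Nr4a1 with other members and of start sites within a gene were chosen after the data were seen. So were the run past Egr1, the 5 kb past gene ends and the motif letters beyond EGR and NBRE. Counting was tested on simulated data. Python 3.11.15, NumPy 2.4.6, SciPy 1.17.1 and pandas 2.3.3 were used. These intervals cover counting error only. Those of medians over peaks, from order statistics, give the uncertainty of the median with peaks taken as the units. A second nearest promoter of 1 member and the value of 1 marker are not reported here.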

Additional observations from a re-analysis of the deposited data

Results flagged for a closer look

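Barcodes that were not called as cells, which no comparison above used, were read over the same regions. Over the run of bins past the middle of Egr1 they had 68 young and 154 aged fragments, 43.7 and 99.4 per 1000000 of their own in-peak fragments, and a log2 ratio of 1.17 (0.76 to 1.62). Over the 6 member promoters together they had 497 and 426 fragments, 320 and 275 per 1000000, and a log2 ratio of -0.22 (-0.41 to -0.03). In the kept cells the 6 promoters together gave -0.07, and in all called cells -0.06. No value over all promoters is given for the uncalled barcodes, so their promoter ratio cannot be set against a background. They come from the same 2 libraries and are no independent measure of the run. Their part in the results above was not tested.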

How the results depend on the processing

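Over 319 alternative values of 28 results 292 stayed within the spread or 1.5 times the count, and 27 moved. No value past a fold limit changed sign, but values near 0 did under some settings, namely the promoter ratios of Egr1, Egr2 and Egr3, the body ratios of Egr2 and Nr4a3 and the difference of distal peaks with the EGR motif, whose intervals all included 0. Widening the promoter window to 5 kb on either side gave Egr1 0.19, since it then holds the first bins of the run, and the 6 promoters together -0.0129. Taking the 5′ end of the gene as TSS gave Egr2 -0.10 and Nr4a1 -0.37, and 1 member promoter lower. Scaling to fragments in promoters gave -0.0221 for the 6 together and 391 promoters lower in place of 609, and scalings shifted the median of all promoters by at most 0.05. Thinning gave 1209 promoters lower, 1 member promoter lower, 24 flank bins higher (12 without) and 7 flank peaks higher (3 without). Fragments shorter than the length of DNA on a nucleosome gave 1050 promoters lower, 19 flank bins higher and 23 lower (13 without), and 5 flank peaks higher. With at least 50 fragments, which tests more regions, 46 flank bins were higher, 32 were lower and 11 flank peaks were higher. With at least 200 they were 4, 7 and 1, and 5 flank peaks were lower. The Egr1 body outside its promoter window gave 0.36. Without thinning 86.9% of young and 85.2% of aged cells had a fragment at a member promoter. The Egr1 peak at 4125 bp ranged from 1.31 to 1.72 and the run, here summed over its bins so that a fragment with ends in 2 bins counts in both (1.28), from 1.18 to 1.53, each highest with short fragments. Where fewer or more fragments do not account for a change by construction, the cause was not tested. No paired analysis was possible because each age has 1 library, and depth limits the flank regions with near 100 fragments most.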
